A study of Mus musculus with 15 samples.

Results

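Intermediate filaments are rope-like protein polymers that give a cell its mechanical resilience, and each cell type builds them from its own set of proteins. The genes described here are Vim, Krt7, Krt8, Krt18, Krt19, Krt20, Krt23, Nes, Lmna and Lmnb1, measured in primary mouse hepatocytes before and during culture. Every probe set that the platform annotation gives to 1 of these 10 symbols alone was taken, which made 21 probe sets of the 45037 other than controls, and 17 of them lay off the background and were tested among 25429. The hepatocytes came from male C57BL/6 mice. Some were taken freshly isolated (t0). Others were cultured for 4 h or 24 h, as monolayers in tissue culture dishes (TCD) or as three-dimensional aggregates in rotating wall vessels (RWV). The labels name no genetic change and no added agent in any group, and give no age. Each of the 5 groups had 3 arrays, which the labels call independent biological replicates, and the number of arrays limits the precision.

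In the healthy liver the hepatocyte filament network is made of keratin 8 and keratin 18, which pair 1 to 1 and stabilise each other. Keratins 7 and 19 are markers of bile duct cells, and vimentin is the filament protein of mesenchymal cells that many epithelial cells take up in culture or when they migrate. Lamins A/C and B1, from Lmna and Lmnb1, form the lamina under the nuclear membrane, and lamin A/C is known to respond to the stiffness of a cell's surroundings.

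The deposited values are log2 signals from which the median of the 3 fresh arrays had been subtracted in every probe set. A value is therefore a change from fresh cells, and neither the level of a gene nor its order among genes can be read. In RNA of a whole culture, fewer cells of a type and less RNA per cell cannot be told apart. The median of all probe sets lay between -0.077 and 0.077 on every array. TCD replicate 2 at 4 h stood apart in its 18 hybridisation controls, with a median of 1.08 where the other arrays had -0.73 to 0.18. Had the arrays been centred on 7 reference genes, the median difference of all tested probe sets would lie at -0.31 log2 units between RWV and TCD at 4 h and at 0.23 at 24 h, in place of -0.03 and 0.00. Against fresh cells it would lie at -0.14 (TCD) and -0.46 (RWV) at 4 h and at -0.93 and -0.68 at 24 h. The values were fitted as deposited, with no further centring. Values after ± are standard errors of the fit, with 3 arrays in each group. Calls were made with limma where p, adjusted by Benjamini-Hochberg over all 25429 probe sets, was below 0.05.

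Vimentin mRNA rose in both vessels and rose further in the dish. It is represented by 3 probe sets. By the array's naming, an ID ending in _x_at or _s_at marks probes that can match transcripts of other genes, and one ending in _a_at marks probes shared by transcripts of 1 gene. On 1456292_a_at the fresh arrays were at 0.00, -0.60 and 0.14. After 4 h the TCD arrays were at 5.19, 2.55 and 4.42 and the RWV arrays at 1.74, 0.45 and 1.90. After 24 h the TCD arrays stood at 10.34, 10.23 and 10.40 and the RWV arrays at 8.41, 7.42 and 7.99. All RWV arrays lay below all TCD arrays of the same time, and all cultured arrays lay above the fresh ones.

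The probe set without such a suffix, 1450641_at, showed the same order of the groups. Its fresh arrays were at -0.12, 0.00 and 0.01. The TCD arrays at 4 h were at 3.65, 1.98 and 3.43 and those of RWV at 1.21, -0.01 and 1.50, so 1 RWV array was still within the fresh range. At 24 h the TCD arrays were at 8.99, 8.77 and 9.14 and the RWV arrays at 6.87, 5.68 and 6.99, with no overlap. On 1438118_x_at the 3 TCD arrays at 24 h differed by no more than 0.00448 log2 units, against 0.372 on 1450641_at and 0.173 on 1456292_a_at. Whether those arrays had reached the top of the measurable signal cannot be read, since no level was kept. If they had, the differences of 1438118_x_at from them would be lower limits in size.

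Against fresh cells, Vim rose in TCD at 4 h by 3.67 ± 0.528, 3.05 ± 0.480 and 4.21 ± 0.572 on 1438118_x_at, 1450641_at and 1456292_a_at in turn (adjusted p = 3.63e-04, 6.88e-04 and 2.35e-04). In RWV at 4 h only 1438118_x_at was called, at 1.86 ± 0.528 (adjusted p = 0.0216), and 1450641_at (0.93, adjusted p = 0.187) and 1456292_a_at (1.52, adjusted p = 0.0731) were not. With the replicate number as a block 1456292_a_at was called as well (adjusted p = 0.0129). That RWV call ended without RWV replicate 1 (adjusted p = 0.0528) or 3 (0.0853), or without fresh replicate 1 (0.0807) or 2 (0.0565). At 24 h the same probe sets were higher than fresh cells by 9.75, 9.0 and 10.5 in TCD and by 7.58, 6.55 and 8.09 in RWV, with adjusted p from 2.02e-08 to 4.22e-07. In TCD the last 2 of these were the 23rd and 6th highest of the 25429 changes. From 4 h to 24 h Vim rose by 6.08, 5.95 and 6.27 in TCD and by 5.72, 5.62 and 6.58 in RWV.

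RWV aggregates had less Vim mRNA than TCD monolayers at both times. At 4 h the differences were -2.12 ± 0.480 on 1450641_at (adjusted p = 0.0272) and -2.69 ± 0.572 on 1456292_a_at (adjusted p = 0.0204), and -1.81 ± 0.528 on 1438118_x_at was not called (adjusted p = 0.0756, or 0.0427 with the replicate number as a block). The 1456292_a_at value was the 4th lowest of all tested probe sets. At 24 h all 3 probe sets were lower in RWV, by -2.17 ± 0.528, -2.45 ± 0.480 and -2.38 ± 0.572 in the order 1438118_x_at, 1450641_at, 1456292_a_at (adjusted p = 0.0172, 0.00500 and 0.0161). The change of the vessel difference between the times was -0.36 (95% interval -1.99 to 1.27), -0.33 (-1.82 to 1.15) and 0.31 (-1.46 to 2.07), none of them called.

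Several of these Vim calls lay close to the threshold, and leaving out an array ended them while the difference kept its direction. The fits in this paragraph did not pair arrays by replicate number. Replicate 2 was the lowest array on all 3 Vim probe sets in TCD at 4 h and in RWV at 4 h and 24 h. With the replicate number as a block, the 4 h calls of 1450641_at and 1456292_a_at were kept. Without RWV replicate 2 at 4 h, 1456292_a_at was at -2.23 (adjusted p = 0.0742) and 1450641_at at -1.66 (0.0903). The latter also lost its call without RWV replicate 1 (-2.27, adjusted p = 0.0524), TCD replicate 1 (-1.80, 0.0714) or TCD replicate 3 (-1.92, 0.0651). With only the 2 groups at 4 h in the fit the differences were the same by construction and the adjusted p were 0.235 and 0.229. Without TCD replicate 2, the array with the high hybridisation controls, 1438118_x_at was called at 4 h (-2.56, adjusted p = 0.00493). At 24 h 1450641_at kept its call in every alternative. There 1438118_x_at and 1456292_a_at were at -2.17 and -2.35 without TCD replicate 3 (adjusted p = 0.0524 and 0.0528) and at -1.93 and -2.13 without RWV replicate 2 (0.0764 and 0.0715), and 1438118_x_at also lost its call without TCD replicate 2 (0.0543).

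**Figure D1:**
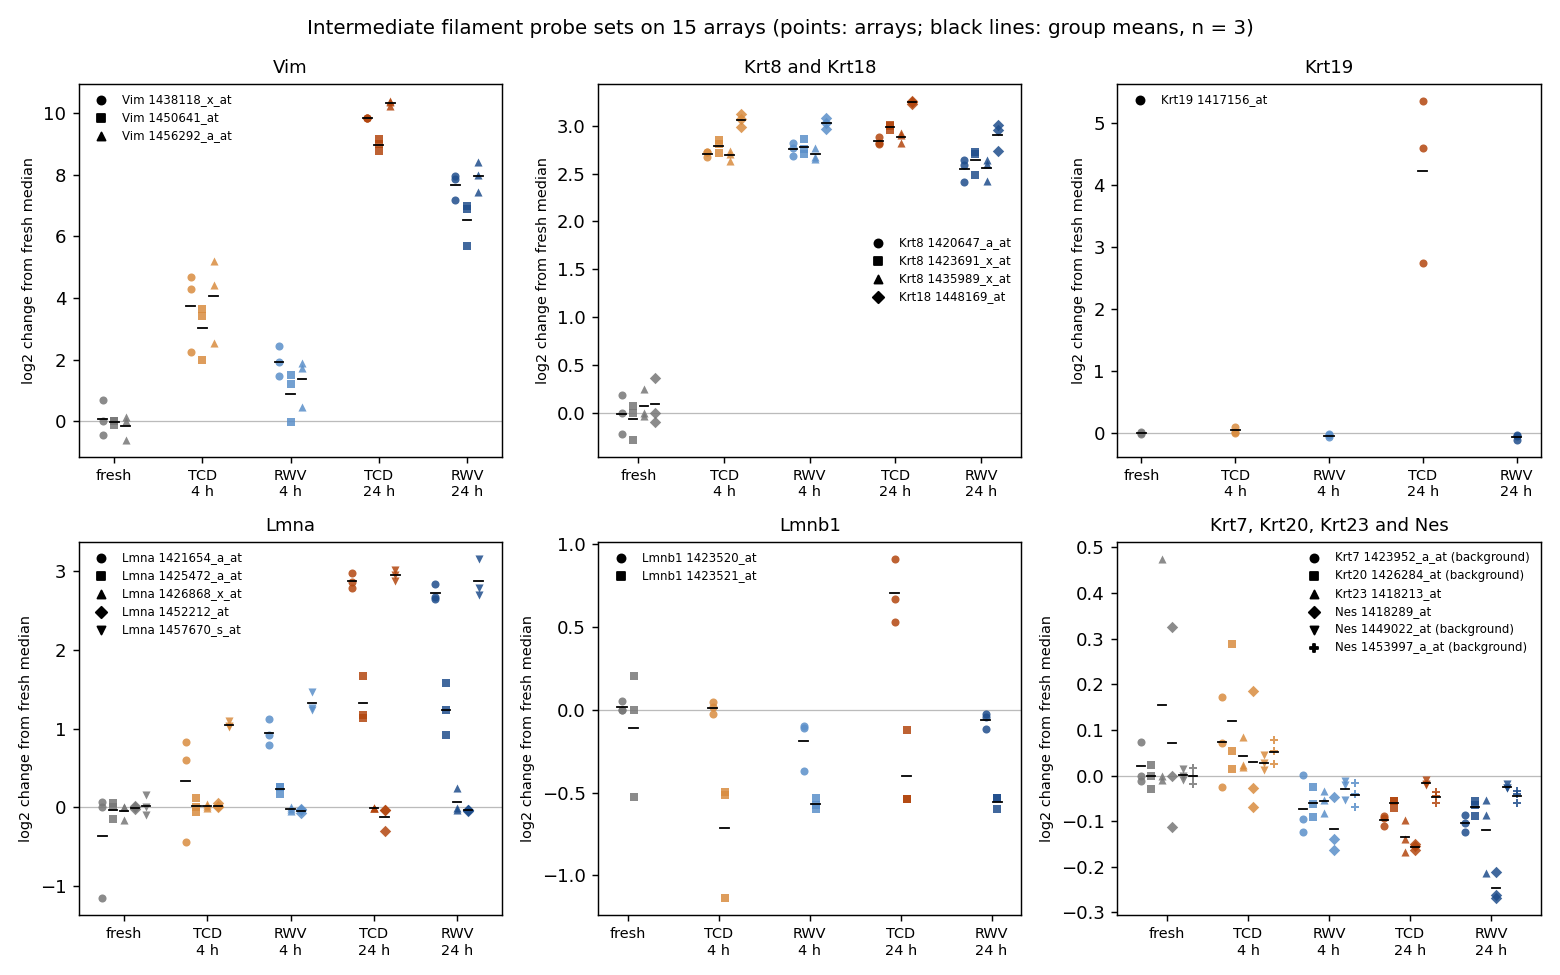
Log2 change from the fresh median (vertical axis) of each array in the 5 groups (horizontal axis), 1 panel per gene or group of genes, with a symbol for each probe set, points for arrays and black lines for group means. Vim climbs from 4 h to 24 h and is lower in RWV, Krt8 and Krt18 are near their plateau at 4 h, and Krt19 leaves the baseline in TCD at 24 h alone.

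Promoter sequences are shown for the members whose probe sets rose in both vessels and have a RefSeq entry, so that their core elements can be compared. The RefSeq table (GRCm38.p6) gives 250 bases before to 50 after each annotated start, and 8 of the 10 genes were in it. Each was searched on both strands for the TATA box TATAAA, the GC box GGGCGG bound by SP1, the AP-1 element TGANTCA and the TEAD element GGAATG. These are held by 13.6%, 35.7%, 7.81% and 14.7% of the 32851 promoters in the table. Capitals below mark the matches. Vim lies at chr2:13574061-13574360 (plus strand) and has a TATA box starting at -32. Krt8 lies at chr15:102004293-102004592 (minus strand) and has 2 overlapping TATA matches, 1 on each strand. They start at -3 and -1, at the annotated start itself and not upstream of it as in Vim. Krt18 lies at chr15:102027966-102028265 (plus strand) and held none of the 4 motifs. The first of 2 Lmna windows lies at chr3:88503303-88503602 (minus strand), with a GC box at -52 and an AP-1 element at 40. The second Lmna window held none of the 4. A match describes letters only.
Vim: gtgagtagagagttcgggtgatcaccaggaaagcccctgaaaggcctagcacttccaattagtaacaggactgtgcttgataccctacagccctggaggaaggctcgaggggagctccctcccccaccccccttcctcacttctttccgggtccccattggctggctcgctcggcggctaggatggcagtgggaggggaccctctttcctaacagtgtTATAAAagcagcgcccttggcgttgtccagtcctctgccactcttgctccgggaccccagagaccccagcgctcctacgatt
Krt8: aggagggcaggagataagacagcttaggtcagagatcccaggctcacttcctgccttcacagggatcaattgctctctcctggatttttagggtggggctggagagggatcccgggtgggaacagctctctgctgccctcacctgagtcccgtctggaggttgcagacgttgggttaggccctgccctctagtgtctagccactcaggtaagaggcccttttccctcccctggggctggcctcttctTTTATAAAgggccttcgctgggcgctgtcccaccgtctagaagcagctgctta
Krt18: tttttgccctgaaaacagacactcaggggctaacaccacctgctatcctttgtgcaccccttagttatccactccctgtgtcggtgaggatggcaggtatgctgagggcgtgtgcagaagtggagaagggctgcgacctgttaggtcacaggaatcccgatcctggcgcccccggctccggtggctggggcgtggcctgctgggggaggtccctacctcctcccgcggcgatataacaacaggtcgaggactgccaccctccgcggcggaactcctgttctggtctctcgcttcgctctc
Lmna: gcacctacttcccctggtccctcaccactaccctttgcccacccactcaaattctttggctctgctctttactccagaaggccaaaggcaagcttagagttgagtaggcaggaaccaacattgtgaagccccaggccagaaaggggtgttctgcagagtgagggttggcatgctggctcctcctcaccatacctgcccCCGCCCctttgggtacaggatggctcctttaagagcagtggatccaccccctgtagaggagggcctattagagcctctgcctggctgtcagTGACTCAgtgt

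Krt8 and Krt18, the keratin pair of hepatocytes, rose together and early. On Krt18 (1448169_at) the fresh arrays were at 0.37, -0.10 and 0.00. The TCD arrays were at 3.07, 2.98 and 3.12 after 4 h and at 3.22, 3.25 and 3.26 after 24 h. The RWV arrays were at 3.02, 2.97 and 3.08 after 4 h and at 3.01, 2.74 and 2.96 after 24 h. All 12 cultured arrays lay far above the fresh ones, and within each vessel the times differed by little.

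Krt8 has 3 probe sets, and part of the signal of the 2 ending in _x_at could come from a near copy. On 1423691_x_at the fresh arrays were at 0.00, -0.28 and 0.08, the TCD arrays at 2.81, 2.71 and 2.85 (4 h) and at 2.95, 3.00 and 3.01 (24 h). The RWV arrays were at 2.76, 2.70 and 2.86 (4 h) and at 2.70, 2.49 and 2.73 (24 h). At 4 h the vessels overlapped, and at 24 h every RWV array was below every TCD array.

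In TCD at 4 h Krt8 was higher than in fresh cells by 2.72 on 1420647_a_at, 2.86 on 1423691_x_at and 2.62 on 1435989_x_at, and Krt18 by 2.97 ± 0.113 (adjusted p = 7.81e-09). In RWV at 4 h the values were 2.76, 2.84 and 2.63 for Krt8 and 2.93 for Krt18 (adjusted p = 7.45e-09). At 24 h Krt18 was higher by 3.15 ± 0.113 in TCD (adjusted p = 1.12e-09) and by 2.81 in RWV (adjusted p = 3.89e-09), with Krt8 between 2.81 and 3.05 in TCD and between 2.48 and 2.71 in RWV. From 4 h to 24 h none of the 4 probe sets was called in either vessel. The TCD changes of 0.13 to 0.20 turned to -0.650, -0.581 and -0.591 for Krt8 and -0.592 for Krt18 when arrays were centred on reference genes, all called (adjusted p from 0.000185 to 0.000958). The RWV changes then were -0.471, -0.398 and -0.409 for Krt8 and -0.384 for Krt18, also called (0.00741 to 0.0243).

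No vessel difference was found for the pair at 4 h, where the 95% intervals were -0.170 to 0.264 for Krt8 1420647_a_at, -0.234 to 0.204 for 1423691_x_at, -0.190 to 0.205 for 1435989_x_at and -0.282 to 0.213 for Krt18. At 24 h 2 of the 3 Krt8 probe sets were lower in RWV, 1423691_x_at by -0.35 ± 0.10 (adjusted p = 0.0390) and 1435989_x_at by -0.33 ± 0.0907 (adjusted p = 0.0333). Krt8 1420647_a_at (-0.29, adjusted p = 0.0804) and Krt18 (-0.34 ± 0.113, adjusted p = 0.0707) were of the same size and were not called. Both Krt8 calls ended when arrays were centred on reference genes (-0.116 and -0.0941). The 1423691_x_at call was lost without any 1 of the 6 arrays, with adjusted p from 0.0528 to 0.160, and the 1435989_x_at call without any but RWV replicate 1.

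The change of Krt8 from fresh cells was a little smaller than that of Krt18 in every cultured group. The mean of the Krt8 probe sets minus Krt18 was -0.0915 ± 0.124 (SD, n = 3) in fresh cells, -0.328 ± 0.0318 in TCD and -0.281 ± 0.0106 in RWV at 4 h, and -0.343 ± 0.0249 and -0.323 ± 0.0251 at 24 h. Over the 15 arrays Pearson's r between Krt18 and the Krt8 probe sets ranged from 0.9975 to 0.9994, which describes mainly the step from fresh to cultured arrays. The genes lie on chromosome 15 with 2 other annotated entries between them, neither protein coding.

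**Figure D2:**
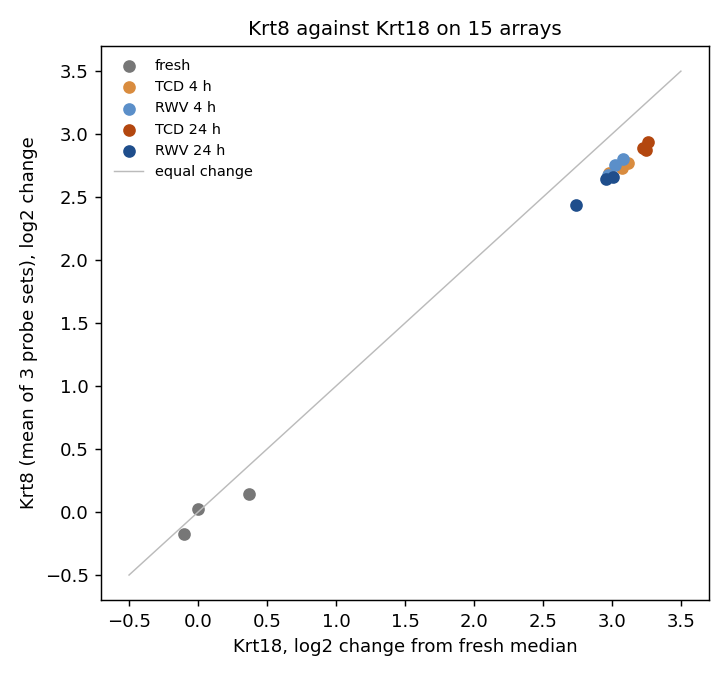
Mean log2 change of the 3 Krt8 probe sets (vertical axis) against that of Krt18 (horizontal axis), 1 point per array, coloured by group. The fresh arrays sit near 0 and the cultured arrays form a separate cluster, in which an RWV array at 24 h is the lowest.

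Krt19, a keratin of bile duct cells that hepatocytes in the intact liver lack, rose in the dish at 24 h and was not called in any other cultured group. On its 1 probe set (1417156_at) the TCD arrays at 24 h were at 2.75, 4.60 and 5.37. The other 12 arrays, RWV at 24 h included (-0.06, -0.04 and -0.11), lay between -0.11 and 0.09. On those 12 arrays the values followed the array background (r = 0.951), so a Krt19 signal could not be told apart from background there, and the size of the differences depends on where the processing sets weak signals. The probe set lay off the background through the TCD arrays at 24 h alone, so that it differed there follows from its being tested, and the values below describe those 3 arrays. The TCD value at 24 h was 4.24 ± 0.456 above fresh cells (adjusted p = 6.66e-06), and RWV at 24 h was at -0.07 (adjusted p = 0.918).

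At 24 h Krt19 was lower in RWV than in TCD by -4.31 ± 0.456 (adjusted p = 8.05e-05), measured against RWV arrays at background. At 4 h the difference was -0.09 ± 0.456 (adjusted p = 0.940). The vessel difference changed between the times by -4.22 ± 0.645 (adjusted p = 0.00229), with the other 3 groups of that comparison at background. These calls were kept in every alternative run. The 3 TCD arrays spread over 2.62 log2 units, more than any other called member within a group at 24 h.

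The other keratins showed little change that could be told apart from background. Krt7, which pairs with Krt19 in ducts, stayed between -0.12 and 0.17 on all arrays, and Krt20, a keratin of the gut lining, between -0.09 and 0.29. Both probe sets followed the background and were not tested. Krt23, a keratin induced in injured and fatty liver, was at -0.01, 0.00 and 0.47 on the fresh arrays and between -0.21 and 0.09 on the cultured ones. It was called lower in TCD at 24 h against fresh cells (-0.29 ± 0.112, adjusted p = 0.0487), a call that ended without any 1 TCD array (adjusted p from 0.0765 to 0.117) and without the fresh array at 0.47 (-0.13, 0.164). Without that array Krt23 followed the background with r = 0.854, above the 0.8 of the filter. The probe set was thus tested only through that fresh array, and its call as lower than fresh cells follows from this.

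Nes encodes nestin, a large filament protein of progenitor cells, activated stellate cells and endothelium. Of its 3 probe sets 2 followed the background and were not tested. The third, 1418289_at, was at 0.32, -0.11 and 0.00 in fresh cells and at -0.21, -0.26 and -0.27 in RWV at 24 h, a difference of -0.32 ± 0.106 (adjusted p = 0.0284). Without fresh replicate 1 it was -0.19 (adjusted p = 0.110), and without any 1 of the RWV arrays the call ended as well (0.0512 to 0.0734). In TCD at 24 h it was at -0.15, -0.15 and -0.16, and the difference from fresh cells was not called (-0.23, adjusted p = 0.0980).

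On 3 of its 5 probe sets Lmna, the gene of lamins A and C, rose in both vessels, and most of that change came between 4 h and 24 h. The other 2 (1426868_x_at and 1452212_at) stayed between -0.30 and 0.25 on all arrays. The 3 that moved carry the suffixes _a_at (2) and _s_at (1). The 1 probe set with no such suffix, 1452212_at, was at -0.12 in TCD and -0.03 in RWV against fresh cells at 24 h, not called. Apart from TCD replicate 3 at 24 h (-0.30), its arrays lay between -0.064 and 0.055, within the range of the array background medians (-0.065 to 0.066). On that probe set Lmna could therefore not be told apart from background, and whether it rose could not be read there. The 2 ending in _a_at, by their naming shared by transcripts of 1 gene, were called higher in both vessels at 24 h. On 1457670_s_at the fresh arrays were at 0.00, 0.16 and -0.09. The TCD arrays were at 1.03, 1.09 and 1.03 (4 h) and at 3.01, 2.87 and 2.94 (24 h), and the RWV arrays at 1.26, 1.23 and 1.46 (4 h) and at 2.69, 2.79 and 3.15 (24 h). The groups of 1 time were close, with the RWV arrays above the TCD arrays at 4 h and overlapping them at 24 h.

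The 1421654_a_at probe set had a spread-out fresh group at 0.00, 0.07 and -1.15. It stood at 0.61, -0.44 and 0.83 in TCD and at 0.92, 0.79 and 1.12 in RWV at 4 h, and at 2.86, 2.78 and 2.97 in TCD and 2.67, 2.64 and 2.83 in RWV at 24 h. The third, 1425472_a_at, was near the fresh arrays at 4 h, at 0.00, 0.12 and -0.05 in TCD and 0.27, 0.16 and 0.27 in RWV. At 24 h it was at 1.66, 1.13 and 1.17 in TCD and at 1.23, 0.92 and 1.57 in RWV. The 3 probe sets therefore moved by unequal amounts and in the same direction, and their pairwise r over the arrays ran from 0.903 to 0.959.

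Against fresh cells, 1457670_s_at rose by 1.03 ± 0.117 in TCD (adjusted p = 5.91e-05) and 1.30 ± 0.117 in RWV (8.36e-06) at 4 h. On 1421654_a_at the RWV value of 1.30 ± 0.334 was called (adjusted p = 0.0127) and the TCD value of 0.69 was not (0.180). Without TCD replicate 2 the latter was called (1.08, adjusted p = 0.0220), and with only the RWV and fresh groups in the fit the RWV value was at 0.0588. At 24 h the 3 probe sets rose by 3.23 ± 0.334, 1.35 ± 0.165 and 2.92 ± 0.117 in TCD and by 3.07, 1.27 and 2.85 in RWV, in the order 1421654_a_at, 1425472_a_at, 1457670_s_at. Their adjusted p ran from 2.70e-09 to 4.70e-05. Centred on reference genes, 1425472_a_at was at 0.445 in TCD and 0.597 in RWV, still called, and 1426868_x_at turned to -0.865 and -0.551.

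No Lmna probe set was called between the vessels. At 24 h the differences were -0.15 (95% interval -0.884 to 0.575), -0.08 (-0.440 to 0.278) and -0.07 (-0.323 to 0.188) in the same order. At 4 h RWV stood 0.61 above TCD on 1421654_a_at (interval -0.121 to 1.34), 0.21 on 1425472_a_at (adjusted p = 0.541) and 0.27 on 1457670_s_at (0.014 to 0.524, adjusted p = 0.236). From 4 h to 24 h Lmna rose by 2.53, 1.30 and 1.89 in TCD and by 1.77, 1.01 and 1.56 in RWV, and the difference of these rises was not called on any of them (-0.76, -0.29 and -0.34).

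Lmnb1, the gene of the B-type lamin that proliferating cells keep high, differed between its 2 probe sets. On 1423520_at the TCD arrays at 24 h were at 0.53, 0.91 and 0.67, above all others, which lay between -0.37 and 0.06. Here RWV was lower than TCD at 24 h by -0.77 ± 0.101 (adjusted p = 0.000390), a call kept in every alternative, and TCD was above fresh cells by 0.69 ± 0.101 (9.43e-05). On the 12 arrays outside TCD at 24 h the values correlated with the array background at r = 0.738, so the low side of these differences may also be background. The change between times of the vessel difference was -0.56 ± 0.143 (adjusted p = 0.0277). With reference genes as the centre that interaction was -0.0456, and the TCD change from fresh cells turned to -0.219 (adjusted p = 0.162). The interaction also ended without RWV replicate 2 (0.0622) or 3 (0.0657) at 4 h, TCD replicate 2 (0.0543) at 24 h, or RWV replicate 2 (0.0545) or 3 (0.0622) at 24 h.

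The other Lmnb1 probe set, 1423521_at, was at 0.00, -0.53 and 0.20 in fresh cells and between -1.14 and -0.12 on all cultured arrays. It was called lower in TCD at 4 h against fresh cells (-0.61 ± 0.200, adjusted p = 0.0494), a call that ended without TCD replicate 3, at -1.14 (-0.40, adjusted p = 0.163), and without fresh replicate 1 (0.139) or 3 (0.172), or with the replicate number as a block (0.0682). Its vessel difference at 24 h was -0.16 (adjusted p = 0.767). The r between the 2 probe sets over the 15 arrays was 0.255. On 1423521_at the cultured arrays other than TCD replicate 3 at 4 h and TCD replicate 2 at 24 h lay between -0.60 and -0.50. Fresh replicate 2 lay there too, so these values may be background, although r with the array background over all arrays was 0.005. If they are, the unlike values of the 2 probe sets cannot be read as a result about Lmnb1.

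Counted over the 17 tested probe sets, all members called between the vessels were lower in RWV. At 4 h 0 were higher and 2 lower in RWV, both of Vim, where 0.7% of all tested probe sets were lower and 4.36% higher. At 24 h 0 were higher and 7 were lower (3 of Vim, 2 of Krt8, 1 each of Krt19 and Lmnb1), where 5.91% of all were lower and 7.37% higher. The median difference at 24 h was -0.29, against 0.00 over all tested. The vessel difference changed between the times for 2 (Krt19 and Lmnb1), both downwards, where 6.19% of all went down and 4.16% up. Centred on reference genes, 0 were higher and 5 lower in RWV at each time, where 4476 (4 h) and 909 (24 h) of all 25429 were lower. The interaction then had 4 upwards and 1 downwards, where 10619 and 877 of all were. Krt19 is among the 7 and the 2. Its probe set was tested only because TCD at 24 h was high, so its calls there follow from its being tested. Probe sets of 1 gene are not independent. With the probe sets of a gene averaged, 1 gene of 8 was lower at 4 h and 4 were lower at 24 h, where 101 and 936 of all 12423 genes were.

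**Figure D3:**
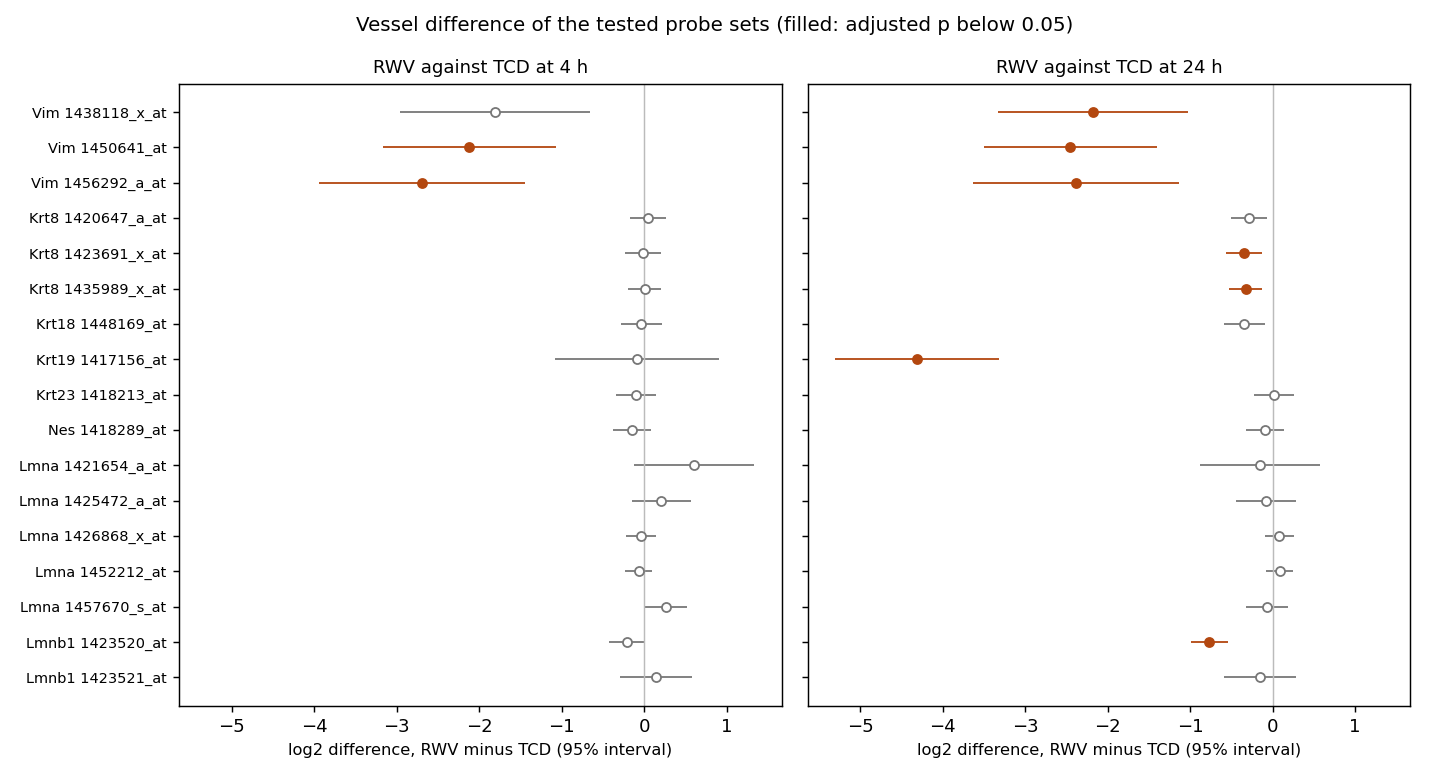
Difference RWV minus TCD in log2 units (horizontal axis) of each tested member probe set at 4 h and at 24 h, with points for the estimate and lines for the 95% interval. At 24 h Krt19 at -4.31 and the 3 Vim probe sets near -2.3 stand apart, and Lmna straddles 0.

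Against fresh cells 8 members were higher and 1 lower in TCD at 4 h, where 8.69% and 12.5% of all were. In RWV at 4 h 7 were higher and 0 lower (13.5% higher and 12.3% lower over all). At 24 h 12 were higher and 1 lower in TCD (29.1% and 20.8% over all), and 10 higher and 1 lower in RWV (27.3% and 16.5% over all). Centred on reference genes, 11 were higher and 5 lower in TCD and 10 and 6 in RWV at 24 h, and 7 and 6 in RWV at 4 h. Over all 25429 probe sets 3213 were then higher and 17252 lower in TCD at 24 h, and 3256 and 15299 in RWV. In RWV at 4 h 2394 of all were then higher and 14401 lower. The medians of the members at 24 h were 2.85 and 2.48 as deposited, against -0.02 and -0.01 over all tested. The 2 vessels share the fresh arrays in these comparisons. From 4 h to 24 h 8 rose and 0 fell in TCD (30.7% and 17.6% over all), and 6 rose and 0 fell in RWV (23.3% and 12.9%). Krt19 is among the 12 higher in TCD at 24 h and the 8 that rose there, and those calls follow from its being tested. The 1 lower in TCD at 24 h is Krt23, off the background through 1 fresh array alone. That call too follows from its being tested.

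**Figure D4:**
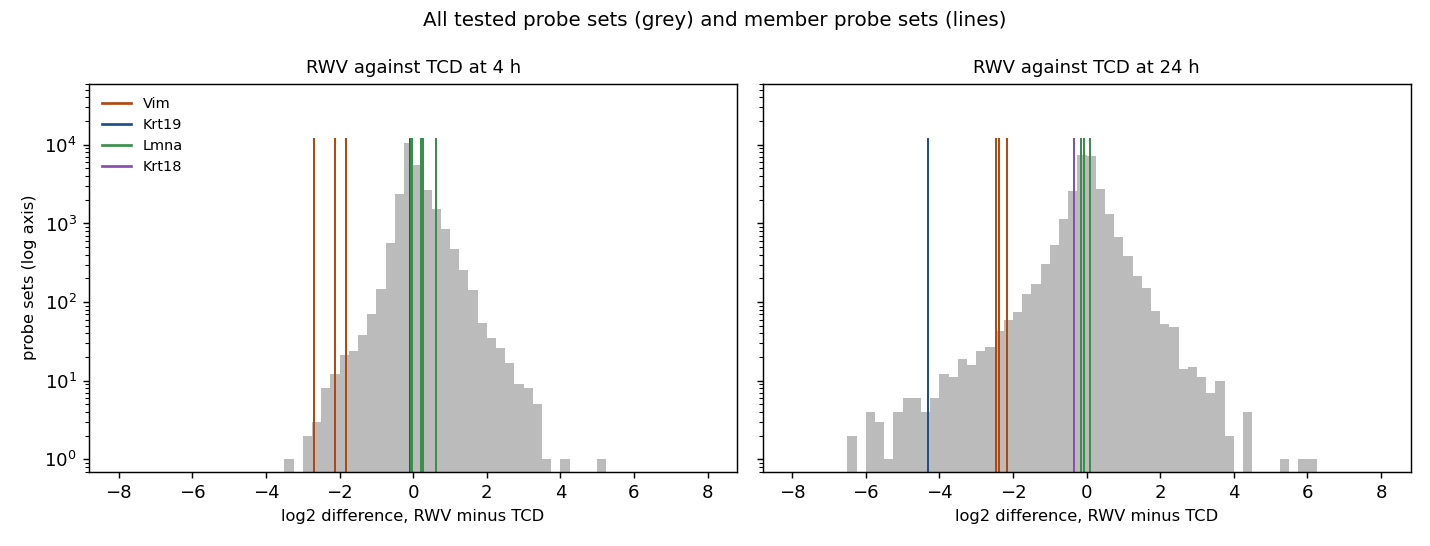
Number of tested probe sets (vertical axis, log scale) by difference RWV minus TCD in log2 units (horizontal axis) at 4 h and 24 h, with Vim, Krt19, Lmna and Krt18 marked. The Vim probe sets lie in the lower tail at both times, Krt19 at 24 h, and Lmna and Krt18 lie nearer the centre.

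Other intermediate filament genes, a list of 24 that included the remaining simple and epidermal keratins and lamin B2, had 44 probe sets, most of which followed the array background. Only 14 probe sets of 11 of them lay off the background, where 25429 of all 45037 did. Between the vessels limma called 0 at 4 h and 0 at 24 h (1 at each time at an unadjusted p below 0.05, medians -0.06 and 0.02). Against fresh cells at 24 h 0 were called in TCD (1 unadjusted) and 1 was higher in RWV, where 29.1% and 27.3% of all were higher. The 1 was Krt5, a keratin of basal epithelial cells, at 1.28 ± 0.405 (adjusted p = 0.0219), a call that ended with reference genes as the centre. In TCD at 4 h Krt10, a keratin of differentiating epidermis, was lower than in fresh cells (-0.84, adjusted p = 0.0104), the 1 call there, where 12.5% of all were lower. Krt5 rose between 4 h and 24 h by 1.08 in TCD and 1.31 in RWV, Krt10 by 0.80 in TCD and Lmnb2, the second B-type lamin, by 0.65 in RWV. These were 2 calls in each vessel, where 30.7% (TCD) and 23.3% (RWV) of all rose. With reference genes as the centre 0 of the 14 rose and 11 fell in TCD, and 1 rose and 3 fell in RWV. Over all 25429 it was then 3461 and 15905 in TCD and 4054 and 6400 in RWV. Centred on reference genes, 13 of the 14 were lower in TCD and 10 in RWV at 24 h against fresh cells, where 17252 and 15299 of all 25429 were.

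Cytolinkers and desmosomal genes, whose proteins tie filaments to membranes and to each other, were measured by 35 probe sets of 16 of 17 genes. In the 24 h comparison with fresh cells 16 rose and 0 fell in TCD (median 0.66) and 18 rose and 0 fell in RWV (median 0.53), where 29.1% and 27.3% of all tested probe sets rose. Dsg2, a desmosomal cadherin, rose by 4.89 in TCD and 3.78 in RWV on its most changed probe set and by 0.69 and 0.89 on another. Dsp, which anchors keratin at the desmosome, rose by 2.88 and 2.07 on 1 of its probe sets. Centred on reference genes, 3213 of all 25429 were higher and 17252 lower in TCD, and 3256 and 15299 in RWV. Of the 35, 10 were then higher and 16 lower in TCD and 12 and 12 in RWV, with medians of -0.25 and -0.14. Between the vessels limma called 0 at 4 h (8 at an unadjusted p below 0.05). At 24 h 4 were lower and 2 higher in RWV, where 5.91% and 7.37% of all tested were. Among the lower were Dst, a linker of filaments to hemidesmosomes (-1.77 ± 0.292, adjusted p = 0.0017), and Dsp, at -0.80 on that probe set (0.0232) and -1.51 ± 0.367 on another (0.0175). The 2 that were higher were Pkp4, a plakophilin (0.64), and Plec, encoding plectin (0.58), and with reference genes as the centre 7 were higher and 3 lower.

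Partners of the nuclear lamina were measured by 33 probe sets of all 19 genes listed. At 24 h 11 were lower and 1 higher in RWV than in TCD, where 5.91% and 7.37% of all tested were. The median was -0.30, against 0.00 over all tested. At 4 h 2 were lower and 1 higher (0.7% and 4.36% over all). The lower ones at 4 h were both of Tmpo, whose LAP2 proteins bind lamins (-1.25 ± 0.205, adjusted p = 0.00609, and -0.83), and the higher one was Lemd3, an inner nuclear membrane protein (0.55). At 24 h Tmpo stood at -1.91 and -1.10, Fntb, a subunit of the enzyme that farnesylates lamins, at -1.48 ± 0.0983, and Lbr, the lamin B receptor, at -0.81. In the comparison with fresh cells at 24 h 21 rose and 5 fell in TCD (median 0.86), and 13 rose and 5 fell in RWV (median 0.38). Of all tested, 29.1% rose and 20.8% fell in TCD, and 27.3% and 16.5% in RWV. Tmpo rose by 4.26 in TCD and 2.34 in RWV on its most changed probe set, and Narf, a binder of prelamin A, fell by 2.67 and 1.87. With reference genes as the centre the count between the vessels at 24 h was 2 higher and 4 lower (median -0.06), and against fresh cells 9 higher and 12 lower in TCD and 7 and 16 in RWV (medians -0.04 and -0.29). Over all 25429 it was then 4256 and 909 between the vessels. Against fresh cells it was 3213 and 17252 in TCD and 3256 and 15299 in RWV.

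Markers of cell types that an isolation of hepatocytes could carry along were read beside these values. Of 6 probe sets of 4 cholangiocyte marker genes off the background (of 8 listed), 3 rose in TCD and 1 in RWV at 24 h against fresh cells (29.1% and 27.3% over all). In RWV 2 of them were lower than in TCD (5.91% over all), Sox9 (-2.07 ± 0.608, adjusted p = 0.0431) and Epcam (-1.11 ± 0.236, 0.0082). Their array medians ran from 0.40 to 0.84 in TCD and from 0.02 to 0.23 in RWV at 24 h, the same order as Krt19 at that time. At 4 h, with Krt19 at background, 2 probe sets, both of Sox9, had already risen in each vessel. In TCD 1 rose and 2 fell between 4 h and 24 h (median -0.30), while Krt19 rose. Centred on reference genes, 2 of them were higher and 3 lower in TCD, and 1 higher and 3 lower in RWV, while the count between the vessels stayed at 2. Of 4 stellate cell or fibroblast genes off the background (of 9), 1 differed, Reln, at 5.53 in TCD against fresh cells and -4.95 ± 0.419 in RWV against TCD, and the array medians of the list stayed between -0.08 and 0.19. Among 5 endothelial probe sets (of 8 genes) Stab2 was lower in RWV at 24 h (-2.36), and 0 of 11 macrophage and leukocyte probe sets were called between the vessels at 24 h (2 unadjusted). With reference genes as the centre 2 of the 11 were higher in RWV than in TCD, where 4256 of all 25429 were. Against fresh cells 2 of the 11 were higher in RWV at 24 h as deposited (27.3% over all). No mesothelial marker lay off the background. At 4 h limma called 0 probe sets of these marker lists between the vessels (at an unadjusted p below 0.05, 2 of hepatocytes, 1 of macrophages and leukocytes and 0 of the other lists). The list medians of RWV minus TCD at 4 h were -0.41 for endothelial, -0.20 for macrophage and leukocyte, -0.15 for stellate or fibroblast, -0.04 for cholangiocyte and 0.03 for hepatocyte markers. Centred on reference genes, 3 macrophage and leukocyte probe sets and 1 endothelial were lower in RWV at 4 h. Of 17 hepatocyte marker probe sets of 8 genes, 15 fell in TCD and 16 in RWV at 24 h against fresh cells (20.8% and 16.5% over all). Between the vessels at 24 h 4 of the 17 (1 gene) were higher and 2 (2 genes) lower in RWV, where 7.37% and 5.91% of all were. Since no signal level was kept, which of these markers were near 0 could not be read, and their part in the changes of Vim and Krt19 was not tested.

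The genes most like the members over the 15 arrays were found by Pearson's r, as a description over arrays that share groups and normalisation. Vim (1456292_a_at) was followed most closely by Prelid2 (r = 0.984), Pfkl (0.982) and Stk24 (0.980). Krt8 (1423691_x_at) was followed by Krt18 (0.997), Klf6 (0.996) and Gna13 (0.989). Krt19 was followed by Enah (0.999), Tgfb2 (0.997) and Thbs1 (0.997), a likeness that reflects 3 arrays above a flat baseline. Krt23 was followed by Pramel13 (0.979), Gli3 (0.978) and Ccdc103 (0.975), a likeness that reflects 1 fresh array.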

How the data were processed

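Biotin-labelled RNA of primary hepatocytes was measured on 15 Affymetrix arrays. The deposited values are log2 signals that the authors made with GCRMA (version not stated), per the submitters' processing notes. GCRMA subtracts a background estimated from each probe's sequence, then normalises the arrays and summarises each probe set. That the logarithm is to base 2 follows from GCRMA's usual scale. The fresh median was 0 in all 45101 probe sets (tolerance 1e-06), so the log2 values deposited are changes from fresh cells.

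Of these, 64 were array controls, 34945 carried 1 gene symbol, 932 several and 9160 none in the platform's annotation, whose names can be outdated (34754 with 1 symbol matched a current gene by Entrez number). As background, 19608 were removed: those with an SD below 0.5 that correlated at r above 0.8 with the per-array median of the least variable 20%. The remaining 25429 were fitted with limma 3.58.1 (lmFit, contrasts.fit, eBayes) in R 4.3.3, with every array in the same fit and 10 residual degrees of freedom, and p was adjusted by Benjamini-Hochberg over the whole table.

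Every member probe set is described. From the related lists, up to 4 called probe sets with the largest changes were open to naming, and for Vim, Krt8, Krt19 and Krt23 the 3 genes with the highest Pearson r. Krt10 and the members of the marker lists named beside them were chosen after their values were seen. The members and the lists, written from general knowledge, were chosen with earlier results of these data known. Alternatives were no filter, 1 probe set or the mean of the probe sets per gene, no probe sets of shared sequence, centring on reference genes or on the tested median, a replicate block, array weights, robust eBayes, only the groups compared, and leaving out each array. Shared sequence there meant any ID ending in _x_at, _s_at or _a_at, so probes shared by transcripts of 1 gene were left out too. The fitting was tested on simulated data. After group means were subtracted, arrays of 1 number correlated above 0.1 in every pair for fresh cells, TCD and RWV at 4 h, so the numbers were taken to pair these groups, and values with the block stand beside the calls it changed there.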

Additional observations from a re-analysis of the deposited data

Results flagged for a closer look

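The difference between RWV and TCD changed from 4 h to 24 h for 2 of the 17 tested probe sets, by limma's interaction term. For Krt19 (1417156_at) the change was -4.22 log2 units, from -0.09 at 4 h to -4.31 at 24 h, and all 3 RWV arrays lay below all 3 TCD arrays at 24 h. Outside TCD at 24 h its 12 arrays followed the array background (r = 0.951), so the probe set was tested only because that group was high, and the size of the change depends on the floor of weak signals. For Lmnb1 (1423520_at) it was -0.56, from -0.20 at 4 h to -0.77 at 24 h, with r = 0.738 to the background on the same 12 arrays. Groups of 3 arrays are too small for a search for single outlying samples.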

How the results depend on the processing

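Of 65 calls made on single probe sets in the 9 comparisons, 51 were kept in every alternative that could test them. All 9 reversals came with centring on reference genes. Lmna 1426868_x_at went to -0.379 in RWV at 4 h, -0.865 in TCD at 24 h and -0.551 in RWV at 24 h against fresh cells. Lmnb1 1423520_at went to -0.219 in TCD at 24 h against fresh cells and to -0.0878 from 4 h to 24 h, and over that interval in TCD Krt8 went to -0.650, -0.581 and -0.591 and Krt18 to -0.592. The reference genes themselves rose in TCD at 24 h (11 of 16 probe sets, median 1.22).

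The number of members called moved as follows, in the order RWV against TCD at 4 h, at 24 h, the interaction, TCD and RWV at 4 h against fresh, TCD and RWV at 24 h against fresh, and 24 h against 4 h in TCD and in RWV (2, 7, 2, 9, 7, 13, 11, 8 and 6 as reported). Leaving out 1 array gave 0 to 3, 3 to 6, 1 to 2, 8 to 10, 6 to 8, 12 to 15, 10 to 13, 8 to 8 and 6 to 6. With fewer probe sets tested the counts fell by construction: 1 probe set per gene gave 1, 4, 2, 3, 3, 6, 5, 4 and 2, the mean of the probe sets 1, 4, 1, 4, 4, 6, 5, 4 and 2, and no shared sequences 1, 3, 2, 2, 1, 4, 3, 3 and 1. No filter gave 7 at 4 h between the vessels, 4 for the interaction and 14 from 4 h to 24 h in TCD. Centring on reference genes gave 5 at 4 h between the vessels, 5 for the interaction (4 higher, 1 lower), 13 in RWV at 4 h against fresh (7 higher, 6 lower), 16 in TCD (11 higher, 5 lower) and 16 in RWV (10 higher, 6 lower) at 24 h, and 15 (7 higher, 8 lower) and 11 (6 higher, 5 lower) from 4 h to 24 h in TCD and RWV. With only the groups compared in the limma fit 0 were called at 4 h between the vessels (5 at an unadjusted p below 0.05).

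With the replicate block the counts were 3, 8, 2, 8, 8, 12, 11, 8 and 6. Vim 1438118_x_at was then called between the vessels at 4 h (adjusted p = 0.0427), Krt18 at 24 h (0.0460) and Vim 1456292_a_at in RWV at 4 h against fresh (0.0129), while Lmnb1 1423521_at in TCD at 4 h (0.0682) and Krt23 in TCD at 24 h (0.0652) were lost. The block changed no other call. The labels do not say what the numbers mark. Each of the 15 arrays correlated best with one that shared its number, a hint from the data, and in 5 of 10 pairs of groups every correlation was above 0.1. With array weights, which gave TCD replicate 2 at 4 h a weight of 0.206 (0.469 to 2.79 elsewhere), Krt8 1420647_a_at (0.0282) and Krt18 (0.0247) were called between the vessels at 24 h and Vim 1438118_x_at at 4 h (-2.53, 0.00208).

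Over all probe sets the calls between the vessels at 4 h ranged from 27 to 22561 (1287 as reported), at 24 h from 1890 to 5426 (3376) and for the interaction from 1573 to 14450 (2631). Against fresh cells they ranged from 2370 to 6755 (5401) and 3671 to 16795 (6565) at 4 h, and from 6961 to 20465 (12677) and 6093 to 18555 (11133) at 24 h, TCD first. From 4 h to 24 h they ranged from 6741 to 33080 (12287) in TCD and from 5113 to 10454 (9206) in RWV. The direction of these calls depended on the centring: higher against lower went from 1109 and 178 to 903 and 4476 between the vessels at 4 h with reference genes (2581 and 19980 with no filter), from 1873 and 1503 to 4256 and 909 at 24 h, and from 1057 and 1574 to 10619 and 877 for the interaction (11999 and 2451 with no filter). In TCD and RWV at 4 h against fresh they went from 2211 and 3190 to 1925 and 4830 (3730 and 2870 with no filter) and from 3435 and 3130 to 2394 and 14401. At 24 h they went from 7390 and 5287 to 3213 and 17252 (7160 and 9362) and from 6947 and 4186 to 3256 and 15299 (6666 and 8402). From 4 h to 24 h they went from 7814 and 4473 to 3461 and 15905 in TCD (8124 and 24956) and from 5919 and 3287 to 4054 and 6400 in RWV. Other causes were not tested. Signal over background limits Krt7, Krt19, Krt20, Krt23 and Nes and the low values of Lmnb1 1423520_at.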
